A study of Homo sapiens with 2 samples.

Results

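The genes described here are 35 genes of the G1/S transition and of DNA replication, chosen by name, out of 20163 protein-coding genes in the annotation. A gene was counted as having a SOX9 promoter peak when the summit of a peak lay within 1 kb of any of its transcription start sites (TSSs), and 31 of the 35 genes had one. SOX9 is a transcription factor of the high mobility group box family that intestinal stem and progenitor cells and many colorectal tumours express. Chromatin of HT-29 cells, an established human colorectal adenocarcinoma line, was fixed with 1% formaldehyde and immunoprecipitated with an antibody against SOX9 in 1 library, and the input DNA of the same line was sequenced in 1 library without immunoprecipitation. The labels name no knockdown, drug or sort by phase of the cell cycle. With 1 biological replicate, no difference between genes or libraries has a replicate error. The intervals of tags and signals below cover counting error only. Those of shares and medians treat the genes or peaks as independent draws, although the genes were chosen by name.

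Replication starts at origins that the origin recognition complex, CDC6 and CDT1 load with the MCM helicase during G1. At the G1/S transition, cyclin E-CDK2 and the phosphatase CDC25A drive the cell on, CDC45 and the GINS complex turn the helicase on, and primase, the polymerases, the sliding clamp PCNA and its loader RFC copy the DNA from nucleotides that ribonucleotide reductase and thymidylate synthase supply. Many of these genes are transcribed together before S phase through E2F factors, and many cell cycle promoters also hold CCAAT boxes, which the trimeric factor NF-Y binds.

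Each library held 12320108 tags after the input had been reduced to the size of the ChIP, and the list of the authors held 17847 SOX9 peaks. Matches of 4 kinds were sought up to 100 bp from a summit, on either strand. They were the CCAAT core of the NF-Y site, the full NF-Y motif (2 purines, CCAAT, C or G, and a purine), an E2F site (3 Ts, 2 bases that are C or G, and CGC) and a SOX9 consensus (2 bases that are A or T, CAA, A or T, and G). The full NF-Y motif always holds a CCAAT core. A match describes the letters of the sequence and is not a measurement of binding.

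The first sequences show the CCAAT box nearest to the SOX9 summit, with 28 bases on either side, because this box was the commonest match near the summits of the replication genes. They come from the GRCh37 (hg19) genome, run 5′ to 3′ along the strand of the gene, and have CCAAT or its complement ATTGG in capitals.
CDC25A, chr3:48229933-48229993, minus strand: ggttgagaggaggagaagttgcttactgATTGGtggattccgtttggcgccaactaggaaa
ORC6, chr16:46723475-46723535, plus strand: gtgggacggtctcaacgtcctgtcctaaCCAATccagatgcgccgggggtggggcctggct
CDC6, chr17:38444000-38444060, plus strand: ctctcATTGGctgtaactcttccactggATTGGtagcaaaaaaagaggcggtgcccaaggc
MCM5, chr22:35796026-35796086, plus strand: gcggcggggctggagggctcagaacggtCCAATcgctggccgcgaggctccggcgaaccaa
MCM6, chr2:136634039-136634099, minus strand: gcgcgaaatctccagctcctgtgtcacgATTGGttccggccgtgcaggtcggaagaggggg
MCM10, chr10:13203425-13203485, plus strand: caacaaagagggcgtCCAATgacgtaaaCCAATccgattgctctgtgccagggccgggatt
GINS2, chr16:85722686-85722746, minus strand: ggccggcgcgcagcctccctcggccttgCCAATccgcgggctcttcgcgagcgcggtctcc
POLE, chr12:133264006-133264066, minus strand: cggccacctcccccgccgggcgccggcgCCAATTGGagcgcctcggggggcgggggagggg
RRM1, chr11:4115859-4115919, plus strand: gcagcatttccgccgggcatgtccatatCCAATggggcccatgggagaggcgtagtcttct
UNG, chr12:109535804-109535864, plus strand: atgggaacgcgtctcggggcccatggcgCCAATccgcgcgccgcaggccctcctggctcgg

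The stretch of UNG lies in intron 1 of the canonical transcript. That of GINS2 lies in an intron of a longer transcript, and the others lie before the first exon. A further 4 stretches of 41 bases show an E2F site at the genes of the MCM helicase, where this match was found at all 6 genes. Over all promoter peaks its share was 4.13%. The E2F site is in capitals, on either strand of the gene.
MCM2, chr3:127317240-127317280, plus strand: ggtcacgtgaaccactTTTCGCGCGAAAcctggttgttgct
MCM3, chr6:52149690-52149730, minus strand: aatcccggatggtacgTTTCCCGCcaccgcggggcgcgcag
MCM5, chr22:35796113-35796153, plus strand: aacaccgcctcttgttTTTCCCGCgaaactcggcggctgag
MCM6, chr2:136634075-136634115, minus strand: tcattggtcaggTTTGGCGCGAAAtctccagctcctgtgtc
At MCM2 and MCM6 the capitals are 2 E2F sites that overlap on opposite strands. The next pair shows the 61 bases round the summits of CDC45 and SLBP, whose peaks were among the highest without a CCAAT core.
CDC45, chr22:19466790-19466850, plus strand: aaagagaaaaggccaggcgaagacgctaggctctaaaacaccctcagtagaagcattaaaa
SLBP, chr4:1714206-1714266, minus strand: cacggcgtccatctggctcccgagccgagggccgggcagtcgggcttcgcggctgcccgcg

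SOX9 summits lay at the promoters of most G1/S and replication genes. A promoter peak was found at 31 of 35 genes, 88.6% (Wilson 95% interval 74.0 to 95.5), against 44.8% of all protein-coding genes (9035 of 20163). Most active promoters are rich in CpG, and 34 of the 35 genes had a CpG-rich start (GC of at least 50% and an observed to expected CpG ratio of at least 0.6 within 250 bp of the canonical TSS). Among CpG-rich genes the shares were 88.2% for the replication genes (30 of 34) and 59.7% for all (8069 of 13518). The 4 genes without a promoter peak were CCNE1, GINS4, RFC4 and RFC5.

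The peaks of the replication genes held a median of 76 tags (95% interval of the median from order statistics 65 to 116, 31 peaks), and all promoter peaks held a median of 59. Of the 31 peaks, 24 lay above that median. The range ran from 33 tags at CDC25A to 330 at CDC45, and the exact intervals of these counts did not overlap. The fold enrichment over the local input had a median of 14.84 at the replication genes and of 10.12 at all promoter peaks. The empirical false discovery rate of MACS was 0 for 29 of the 31 peaks, 0.01% for CHEK1 and 0.05% for POLD1.

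**Figure D1:**
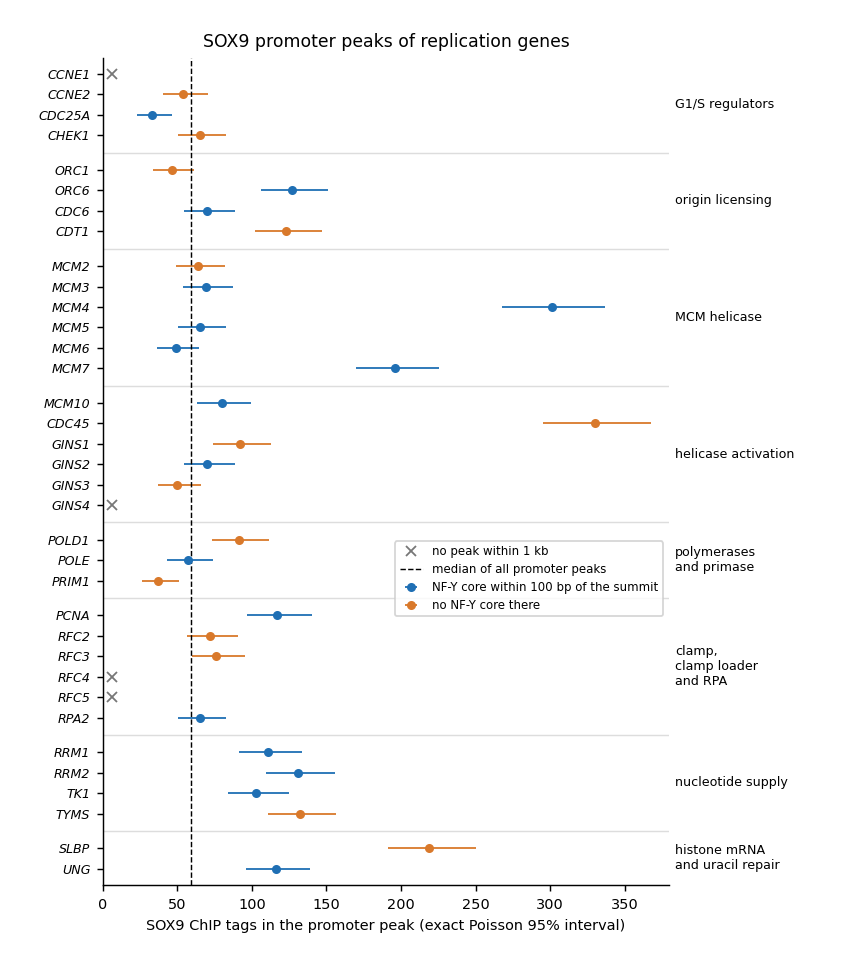
SOX9 ChIP tags in the promoter peak (x axis, number of tags, with exact Poisson 95% intervals that cover counting error only) of the 35 genes (y axis, by replication complex). Blue points have a CCAAT core (NF-Y core) within 100 bp of the summit, orange points have none, crosses at the left edge mark the 4 genes without a peak, and the dashed line is the median of all promoter peaks, 59 tags. The peaks of CDC45, MCM4, SLBP and MCM7 lie to the right of all others.

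Among the regulators of the G1/S transition, 3 of 4 genes had a peak, with 33 to 65 tags. CCNE2, one of the cyclins E that activate CDK2, had 54 tags at a fold of 9.74, with the summit 77 bp upstream of the nearest TSS. CDC25A, the phosphatase that activates CDK2, had 33 tags (exact Poisson 95% interval 22.7 to 46.3) at a fold of 14.29, the fewest tags of the 31 peaks. CHEK1, the checkpoint kinase that restrains CDC25A, had 65 tags at a fold of 4.95, the lowest fold of all. Its summit lay 80 bp upstream of an alternative TSS and 731 bp downstream of the canonical TSS, in the 5′ UTR of exon 1. CCNE1, the other cyclin E gene, had no summit within 1 kb, and the nearest lay 32594 bp from its TSSs. Within 1 kb of the canonical TSS of CCNE1, the highest signal per bin of 32 nt was 10 tags for the ChIP and 4 for the input.

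The origin licensing genes split into a higher and a lower pair. ORC6, a subunit of the origin recognition complex, had 127 tags (interval 106 to 151) at a fold of 18.07, and CDT1, which loads the MCM helicase together with CDC6, had 123 (interval 102 to 147) at a fold of 42.62. CDC6 had 70 tags at a fold of 11.64, and ORC1, the largest subunit of the recognition complex, had 46 at a fold of 6.3. The intervals of ORC6 and CDT1 lay above those of CDC6 and ORC1. ORC6 starts head to head with VPS35, and ORC1 with PRPF38A. The summits of ORC6, CDC6 and CDT1 lay 51, 80 and 83 bp upstream of the nearest TSS, whereas that of ORC1 lay 91 bp downstream. CDC6 had 3 CCAAT cores within 100 bp of its summit, and ORC6 had 2, one of them 1 bp from the summit. CDT1, whose tag interval overlapped that of ORC6, had no CCAAT core there and had an E2F site 31 bp before the TSS.

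All 6 genes of the MCM2 to MCM7 helicase, the ring that unwinds the DNA, had a promoter peak. MCM4 had 301 tags (interval 268 to 337) at a fold of 44.94, the highest fold of all 31 peaks, and MCM7 had 196 (interval 170 to 225) at a fold of 18.65. The other members of the ring lay between 49 tags at MCM6 and 69 at MCM3, with 64 at MCM2 and 65 at MCM5. Their intervals overlapped one another, and those of MCM4 and MCM7 lay above them. The subunits form a ring with 1 copy of each, but the peaks at their genes ranged from 49 to 301 tags. At the highest bin within 1 kb of the canonical TSS, MCM4 had a ChIP signal of 163 tags against an input of 11, and the other 5 genes had 24 to 49 against inputs of 5 to 8. The MCM4 start lies head to head with that of PRKDC, which encodes the catalytic subunit of the DNA-dependent protein kinase, and that of MCM7 with AP4M1. The MCM7 summit lay 44 bp from a TSS of AP4M1 and 96 bp from one of MCM7, and the peak cannot be assigned to either gene.

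The MCM helicase genes often held both an NF-Y core and an E2F site. All 6 peaks had an E2F site within 100 bp of the summit, and 5 of 6, MCM2 apart, had a CCAAT core. Over all promoter peaks the shares were 4.13% for the E2F site, 32.2% for the core and 1.66% for both. The genes were chosen with earlier results of these data known, and many of the list are long known as E2F targets. MCM3 and MCM5 had 3 CCAAT cores each, MCM6 and MCM7 had 2 and MCM4 had 1. At MCM6, the CCAAT boxes centred 98 and 56 bp before the TSS flanked the overlapping E2F sites at 86 and 82 bp, and both boxes had the full NF-Y motif. At MCM5 the boxes lay 125, 71 and 42 bp before the TSS and the E2F site 6 bp after it. At MCM2, the overlapping E2F sites lay 7 and 11 bp after the TSS.

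Among the genes that activate the helicase, CDC45 had the peak with the most tags of all 31, 330 (interval 295 to 368) at a fold of 32.28. Its highest ChIP signal within 1 kb of the canonical TSS was 130 tags per bin against 8 in the input. The summit lay 160 bp upstream of the nearest CDC45 TSS and 623 bp upstream of the canonical one, 95 bp from a TSS of the divergent gene UFD1, an adaptor of protein degradation. No CCAAT core and no E2F site was found within 100 bp of this summit, while the 200 bp before the canonical TSS of CDC45 held 4 CCAAT cores. MCM10, a scaffold of helicase activation, had 80 tags at a fold of 20.33 with 2 CCAAT cores 28 and 15 bp from the summit on its upstream side. It was also the only gene with a SOX9 consensus within 100 bp of the summit, 41 bp upstream of it.

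The GINS complex has 4 subunits, and 3 of their genes had a promoter peak. GINS1 had 92 tags at a fold of 9.42 at an alternative TSS, 16622 bp upstream of the canonical TSS, and a second peak of 61 tags 16 bp before the canonical TSS. The second peak, not the first, had a CCAAT core and an E2F site near its summit. GINS2 had 70 tags at a fold of 20.54 with a CCAAT core and an E2F site, and GINS3 had 50 tags at a fold of 14.46 with an E2F site. The summit nearest to GINS4 lay 49210 bp away, and its highest signal was 10 tags for SOX9 and 2 for the input.

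The polymerase and primase genes had peaks of middle or low height. POLD1, the catalytic subunit of polymerase delta, had 91 tags, but at a fold of 5.36 and with a signal of 21 tags against 9 in the input. POLE, the catalytic subunit of polymerase epsilon, had 57 tags at a fold of 15.48, and PRIM1, the catalytic primase subunit, had 37 at a fold of 7.95. The summit near PRIM1 lay 9 bp from a TSS of HSD17B6 and 104 bp from one of PRIM1, and that near POLE 68 bp from a TSS of PXMP2 and 143 bp from one of POLE. POLE was the only one of the 3 with a CCAAT core, a pair of overlapping copies on opposite strands 74 and 71 bp before the TSS, and none of the 3 had an E2F site.

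Of the genes for the clamp, the clamp loader and the single-strand binding protein, 4 of 6 had a peak. PCNA, the sliding clamp, had 117 tags (interval 96.8 to 140) at a fold of 15.93, in intron 1, with the summit 509 bp downstream of the TSS. This was the farthest summit from a TSS among the 31, and the only one beyond 200 bp. A second peak of 65 tags lay 5 bp downstream of an alternative PCNA TSS, 6663 bp upstream of the canonical one. Both PCNA peaks held 2 CCAAT cores near the summit. The intronic one held 2 overlapping E2F sites 73 and 77 bp downstream of its summit, and the other held 1 E2F site. RFC2 had 72 tags and RFC3 76, at folds of 7.42 and 14.45, while RFC4 and RFC5, which encode other subunits of the same loader, had no peak. RPA2, a subunit of the single-strand binding protein, had 65 tags at a fold of 14.84, with a CCAAT core 1 bp from the summit.

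In tags, the genes of nucleotide supply lay close together and above the median of all promoter peaks. TYMS, thymidylate synthase, had 132 tags at a fold of 9.82, RRM2 had 131 at 42.61, RRM1 had 111 at 14.66 and TK1, thymidine kinase, had 103 at 21.08. The exact intervals of the 4 tag counts, which run from 84.1 at the lowest bound to 157 at the highest, overlap one another. Tags are totals over peaks of unlike width, such as 1653 bp at TYMS and 774 bp at TK1. In the highest ChIP signal within 1 kb of the canonical TSS, the genes lay farther apart. It ran from 34 tags per bin at TYMS (interval 23.5 to 47.5) to 81 at RRM2 (interval 64.3 to 101). RRM1 and RRM2 encode the subunits of ribonucleotide reductase. RRM2 had 3 CCAAT cores, all in the same direction and all with the full NF-Y motif, 94, 64 and 37 bp before the TSS. TK1 had 2, 75 and 44 bp before its canonical TSS, RRM1 had 1 and TYMS had none, and no gene of this group had an E2F site within 100 bp of the summit. RRM2 also had a second peak, with 79 tags at a fold of 6.7, 2183 bp upstream of the canonical TSS.

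SLBP, which binds histone mRNA and is needed for its processing in S phase, had 219 tags (interval 191 to 250) at a fold of 23.28, 165 bp upstream of the nearest TSS. It starts head to head with TACC3, a spindle protein gene. No CCAAT core and no E2F site lay near the SLBP summit. UNG, the uracil DNA glycosylase, had 116 tags (interval 95.9 to 139) at a fold of 31.96, with 3 CCAAT cores and an E2F site. The UNG summit lay 78 bp upstream of an alternative TSS, in intron 1 of the canonical transcript.

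The distances to the TSS were short throughout. The median distance from the summit to the nearest TSS was -51 bp at the replication genes and -49 bp at all promoter peaks, where minus means upstream. The summit lay within 200 bp of a TSS at 30 of 31 genes, all but PCNA, against 80.1% of all promoter peaks. It lay upstream of the nearest TSS at 22 of 31 genes (71.0%, 53.4 to 83.9), against 73.7% of all. With the canonical transcript as the reference, 26 summits lay upstream of it, 3 in intron 1 (PCNA, TYMS and UNG) and 2 in the 5′ UTR of exon 1 (CHEK1 and ORC1), and 6 lay more than 200 bp from its start. A protein-coding gene in the other direction began within 1 kb of 11 of the 35 genes (31.4%, 18.6 to 48.0), against 12.5% of all protein-coding genes. All 11 had a promoter peak (74.1 to 100%), against 75.3% of all genes with such a neighbour, but a peak between 2 such starts cannot be assigned to either. The neighbours not named above were NDUFAF6 at CCNE2, TPRA1 at MCM2 and AFMID at TK1.

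**Figure D2:**
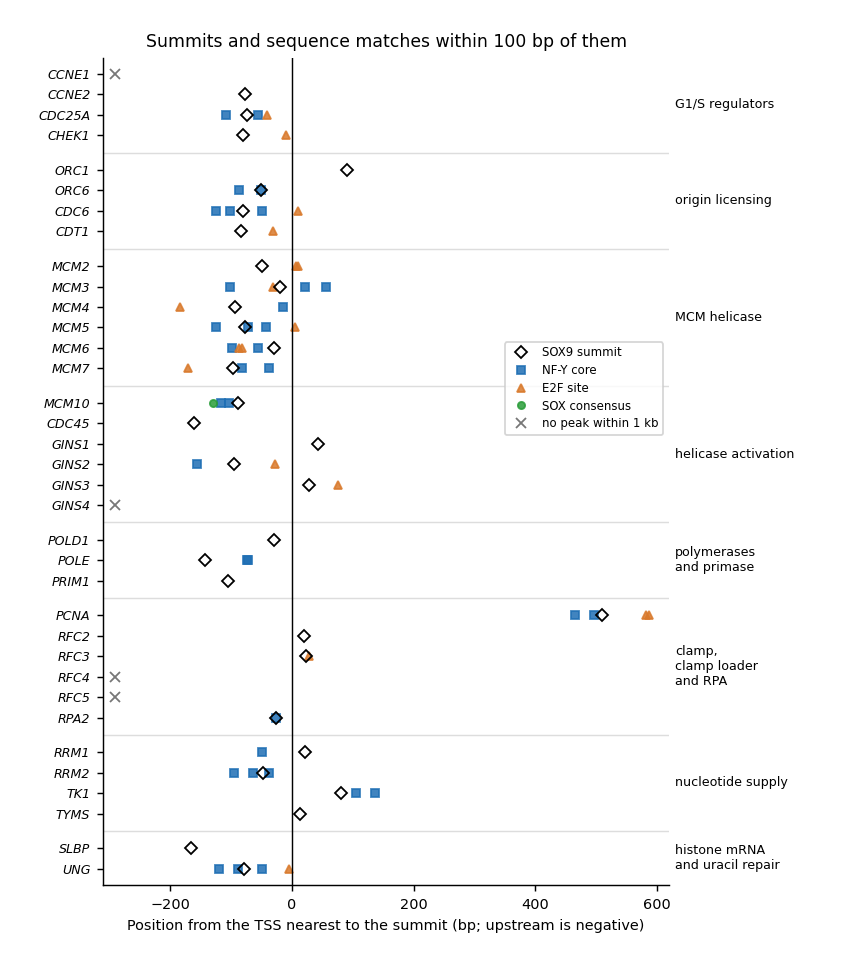
Positions of the SOX9 summits (open diamonds), CCAAT cores (blue squares, NF-Y core), E2F sites (orange triangles) and SOX9 consensus matches (green circle) within 100 bp of the summit, in bp from the TSS nearest to the summit (x axis, upstream negative), for the 35 genes (y axis, by complex). Crosses at the left edge mark the 4 genes without a peak. Of the 35 CCAAT cores, 22 lie 40 to 120 bp upstream, and the PCNA summit and its matches stand apart at the right. The search within 100 bp of the summits limits where cores can lie.

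The CCAAT core was near the summit of 17 of the 31 peaks, 54.8% (37.8 to 70.8), against 32.2% of all promoter peaks (2912 of 9035). The full NF-Y motif was found at 12 (38.7%, 23.7 to 56.2), against 16.1% of all. The 17 genes with a core were CDC25A, ORC6, CDC6, MCM3 to MCM7, MCM10, GINS2, POLE, PCNA, RPA2, RRM1, RRM2, TK1 and UNG. Of these, 5 had 3 cores, 8 had 2 and 4 had 1, so that 13 of the 31 peaks (41.9%, 26.4 to 59.2) held 2 or more, against 15.0% of all promoter peaks. The core nearest to the summit lay at a median of 18 bp from it at the replication genes and of 23 bp at all promoter peaks with a core.

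The 35 CCAAT cores of these peaks stood in both directions, 17 along the gene and 18 against it, and 25 lay within 50 bp of the summit. Upstream of the nearest TSS lay 29 of them. The search within 100 bp of summits that mostly lay upstream limits these positions. No share over all promoter peaks is given for these counts, so they are not read as particular to these genes. Neighbouring cores in the same peak formed 18 pairs, with a median spacing of 33.5 bp between their centres, against 40 bp over the 2041 pairs of all promoter peaks. A range of 26 to 36 bp, chosen after the spacings were seen, held 8 of the 18 pairs (44.4%) and 29.2% of all pairs. These were the pairs at RRM2 with 30 and 27 bp, TK1, PCNA and UNG with 31 bp each, MCM5 with 29 bp, and ORC6 and MCM3 with 36 bp each.

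The E2F site was near the summit of 15 of the 31 peaks, 48.4% (31.97 to 65.2), against 4.13% of all promoter peaks (373 of 9035) and 4.19% of those at CpG-rich starts. The list holds many genes long known as E2F targets, and it was drawn up with results of these data known. The 15 genes were CDC25A, CHEK1, CDC6, CDT1, the 6 MCM helicase genes, GINS2, GINS3, PCNA, RFC3 and UNG. A CCAAT core and an E2F site were found together at 10 peaks (32.3%, 18.6 to 49.9), against 1.66% of all promoter peaks, and neither at 9 (29.0%), against 65.3%.

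The E2F sites lay farther from the summits than the CCAAT cores. Of the 18 E2F sites, 4 had their centre within 50 bp of the summit, and the nearest site of a gene lay at a median of 67 bp from it (15 genes), against 49 bp at all promoter peaks with such a site. At 11 of the 15 genes an E2F site lay on the side of the summit towards the gene. No share over all promoter peaks is given for this count, so it is not read as particular to these genes. Across the peaks with an E2F site the median was 70 tags, and across the 16 without one it was 91.5, and the range of the first, 33 to 301, overlapped that of the second, 37 to 330. The SOX9 consensus was found near 1 summit, that of MCM10, 3.23% of the peaks (0.572 to 16.2), against 7.03% of all promoter peaks. This interval includes the share of all promoter peaks.

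Peaks with and without a CCAAT core differed little in tags, which are totals over the whole peak. The median peak width was 866 bp with a core and 1136 bp without. The 17 peaks with a core had a median of 80 tags (range 33 to 301) and the 14 without one a median of 74 (range 37 to 330), so that the ranges overlapped almost wholly. The fold enrichment had a median of 18.07 with a core (range 11.64 to 44.94) and of 9.58 without (range 4.95 to 42.62). Among these peaks, every one at a fold under 11.64, the lowest fold with a core, was without a core. Outside them, the second peaks of GINS1 and PCNA held a core at folds of 9.52 and 6.39. The second peak of RRM2 held none at a fold of 6.7. The highest ChIP signal in the peak had a median of 43 tags per bin with a core (range 19 to 163). Without a core it was 28.5 (range 15 to 130). Over all promoter peaks the median was 67 tags with a core and 56 without, and the median fold was 12.09 and 9.51. These differences were not tested among the replication genes, since the genes are not replicates of a condition.

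The signal maps, which do not depend on the peak calls but count reads of the same library, put MCM4, CDC45 and SLBP at the top as well. Within 1 kb of the canonical TSS, the highest ChIP signal had a median of 34 tags per bin over the 35 genes, against 10 over all protein-coding genes and 15 over the CpG-rich ones. In the input the medians were 7, 4 and 5. After MCM4 and CDC45 came SLBP and UNG with 89 tags each, RRM2 with 81 and CDT1 with 69, with inputs of 4 to 9 tags. The order was not the same throughout, since MCM7, with 196 tags in its peak, had a signal of 49, below these genes. Among all protein-coding genes, 17 of the 35 were at or above the 90th percentile of this signal and 33 at or above the 50th, with a median percentile of 89.8. For 24 of the 35 genes the Poisson interval of the ChIP value lay above that of the input value (68.6%), against 22.6% of all protein-coding genes and 31.4% of the CpG-rich ones. These intervals treat each value as a single count and do not allow for its choice as the highest bin of a window.

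The genes without a peak stood at the low end of the ChIP signals. CCNE1 and GINS4 had 10 tags per bin each, RFC4 had 11 and RFC5 had 15, the value also found at CCNE2 and ORC1. Their inputs were 4, 2, 6 and 8 tags, and for none of the 4 did the interval of the ChIP value lie above that of the input. All 4 had a CpG-rich start, and the median of the CpG-rich genes without a peak was 6 tags. A difference between ChIP and input at these genes was not detectable at this depth by this measure, and it is not shown to be absent. The input level of the surrounding 1 Mb, relative to the median of the autosomes, ranged over the 35 genes from 0.408 at GINS4 to 1.92 at RFC3, with 1.03 at MCM4 and 1.65 at CDC45. With tags divided by this level, the medians were 68.3 at the peaks of the replication genes and 53.3 at all promoter peaks. The nearest summits lay 23311 bp away at RFC4, 32594 bp at CCNE1, 35984 bp at RFC5 and 49210 bp at GINS4, whereas the farthest summit counted, at PCNA, lay 509 bp from its TSS.

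**Figure D3:**
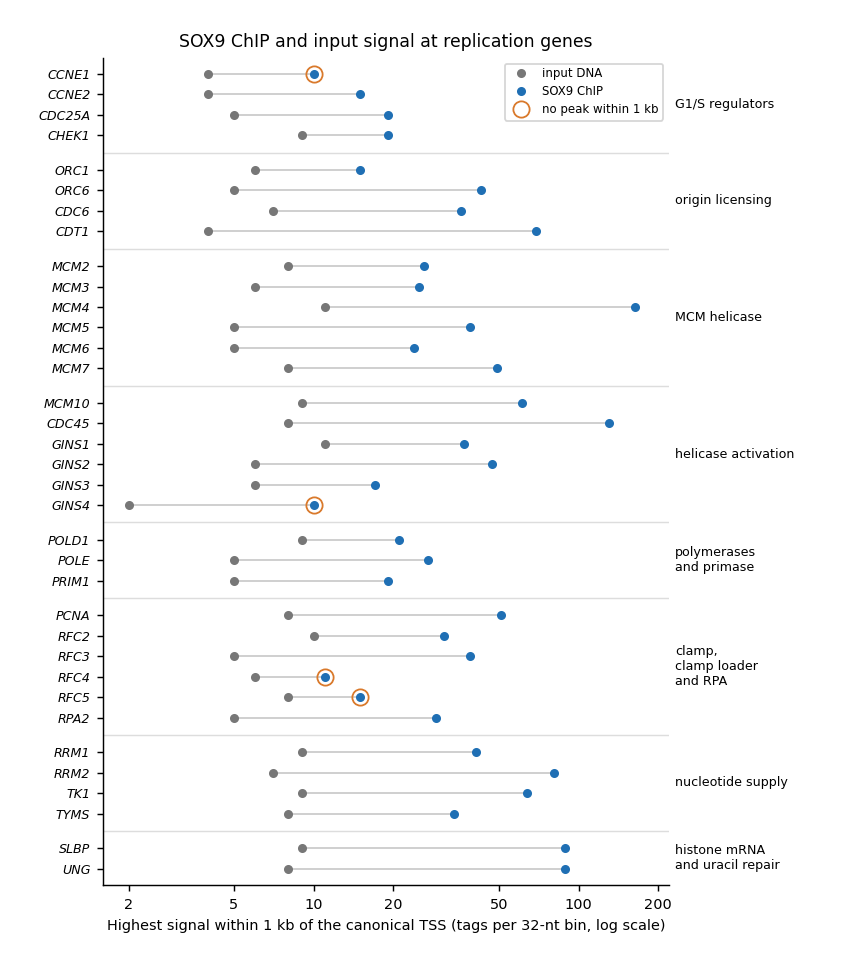
Highest signal within 1 kb of the canonical TSS (x axis, extended tags per 32-nt bin, log scale) in the SOX9 ChIP (blue) and the input DNA (grey) for the 35 genes (y axis, by complex), joined by a line. Orange rings mark the genes without a peak, which have 10 to 15 tags in the ChIP, and MCM4 and CDC45 reach 163 and 130.

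Averaged over the 35 genes, the ChIP signal reached 32.3 tags per bin 96 bp upstream of the canonical TSS, where the input stood at 4.4. Over the CpG-rich protein-coding genes the highest means were 14.6 and 2.69, and over all protein-coding genes 10.6 and 2.16, all at 64 bp upstream. The mean of the replication genes had lower shoulders on both sides, and the summits of CDC45, 623 bp upstream, and of UNG, PCNA and TYMS, 443, 509 and 624 bp downstream of the canonical TSS, fall there.

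CCAAT boxes of the promoters themselves, searched without regard to any peak, were also common. The 200 bp before the canonical TSS held a CCAAT core at 22 of the 35 genes (62.9%, 46.3 to 76.8), against 30.3% of all protein-coding genes. Of these 22 genes, 21 had a SOX9 promoter peak, all but GINS4, and of the 13 genes without such a core, 10 had one. Over all protein-coding genes a peak was found at 50.6% of those with the core and at 42.3% of those without. Among the CpG-rich ones the shares were 68.3% and 56.0%. The interval of the 21 of 22 (78.2 to 99.2%) lay above the first of these, and that of the 10 of 13 (49.7 to 91.8%) included the second.

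A second list of 40 other replication genes (further subunits of the same complexes, kinases, ligases, nucleases and fork proteins) was compared. Of these, 28 had a promoter peak (70.0%, 54.6 to 81.9), with a median of 68 tags. The share was 44.8% of all protein-coding genes and 59.7% of the CpG-rich ones, and the interval includes the latter. A CpG-rich start was found at 37 of the 40 genes. The highest were DUT, the dUTPase, with 139 tags at a fold of 27.47, LIG1, the DNA ligase of Okazaki fragments, with 119 at 6.4, POLD3, a subunit of polymerase delta, with 115 at 5.3, and RECQL4, a helicase, with 106 at 19.28. A CCAAT core lay near 16 of the 28 summits (57.1%, 39.1 to 73.5) and an E2F site near 2 (7.14%, 1.98 to 22.6). Over all promoter peaks these shares were 32.2% and 4.13%. The share with a core was close to that of the 35 genes. The E2F share was lower than their 48.4% (31.97 to 65.2), but their list holds many genes long known as E2F targets. Both lists were drawn up with earlier results of these data known, and the difference was not tested. The 12 without a peak were ORC3, ORC4, CDC7, CDK2, POLA1, POLA2, POLE2, DNA2, CLSPN, WDHD1, TOPBP1 and CHAF1B. The catalytic primase subunit PRIM1 had a peak, as did PRIM2, the other primase subunit, with 52 tags at a fold of 11.75. POLA1 and POLA2, the polymerase alpha subunits that work with them, had none. However, the PRIM1 peak of 37 tags lay 9 bp from a TSS of HSD17B6 and was lost at a score of at least 100. The highest ChIP signal within 1 kb of the canonical TSS was 20 tags per bin at PRIM2, 19 at PRIM1, 15 at POLA2 and 7 at POLA1. Of the kinases CDC7 and CDK2, which fire origins, neither had a peak. DBF4, the partner of CDC7, had one of 96 tags at a fold of 10.88.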

How the data were processed

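Values were taken from the files that the authors deposited. According to the methods and the submitters' processing notes, the authors aligned reads to hg19 with BWA, kept unique alignments without duplicates, thinned the input to an equal tag number and called peaks with MACS 1.3.7.1 (p-value cut-off 1e-07). The deposited peak table gives the count of ChIP tags, a score (the negative log10 of p times 10), the fold ratio over local input and the FDR in percent. The deposited signal maps count tags, extended to 150 bp, per 32-nt bin. Equal tag numbers were the only normalization.

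TSSs came from GENCODE release 44 mapped to hg19. Of several peaks of a gene, the one with the most tags was used. Chromosome 8 and exonic stretches over 30 bases were not printed. Stretches of UNG and GINS2 and the E2F stretches were added after the matches were seen. All 35 genes are named, with the 4 highest, PRIM2, DBF4 and all peakless genes of the second list. Members and lists were chosen with earlier results of these data known. With 1 library of each kind no test was made. Procedures were tested on simulated data. Python 3.11.15, pysam 0.24.0, pandas 2.3.3, SciPy 1.17.1 and matplotlib 3.10.9 were used.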

Additional observations from a re-analysis of the deposited data

How the results depend on the processing

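The number of replication genes with a promoter peak stayed at 31 with limits of 500 bp and 3 kb, with TSSs of protein-coding transcripts, with the canonical TSS and with the interval midpoint. It fell to 27 with a score of at least 100 (without CHEK1, ORC1, POLD1 and PRIM1), and to 27 where the nearest protein-coding TSS had to belong to the gene (without MCM7, CDC45, POLE and PRIM1), a setting chosen after seeing the data. The share of all protein-coding genes was 42.7% at 500 bp, 47.5% at 3 kb, 43.1% with TSSs of protein-coding transcripts, 40.9% with the canonical TSS, 35.9% at the stricter score, 38.7% with the nearest TSS and 59.7% for CpG-rich starts. Over whole peak intervals, 28 peaks held a CCAAT core (63.5% of all promoter peaks) and 10 a SOX9 consensus (36.1% of all). Round the interval midpoint, 7 peaks held the full NF-Y motif (11.5% of all promoter peaks), 9 an E2F site (3.72% of all) and 2 a SOX9 consensus (6.88% of all). The whole E2F site lay within 50 bp at 3 peaks (1.98% of all), without GINS3, whose site is only centred there. The SOX9 consensus count was 3 within 200 bp (14.0% of all) and 2 for the peak nearest to a TSS (6.80% of all). The cause of these shifts was not tested. The mean ChIP signal within 250 bp had a median of 15.5, against 4.65 for all genes. The other 45 such values stayed within 1.5 times the count, or within the 95% interval of the share or median. One of them was the median distance to the TSS, -22 bp with the midpoint (-35 bp for all promoter peaks). Among single genes, the tags of GINS1 (61 for the nearest peak and the canonical TSS) and PCNA (65 for the nearest peak) moved. No paired analysis was possible because each group has 1 sample. Without replicate libraries, all values hold for this pair of libraries only.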
